A study of Bos taurus with 4 samples.

Results

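The bovine embryo array carries many probes that the platform's annotation leaves without a gene symbol, and 14131 of them gave signal in blastocysts. They were chosen from 43794 probes of the array design by an empty symbol, which 22004 had, and by signal minus local background above a limit in at least 4 of 8 channel readings. The limit was set in each channel at the 95th percentile of its 153 negative control spots. The same limit left 16342 of the 21790 probes with a symbol, so that 30473 probes were tested in all.

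Slow freezing lowers the temperature of embryos step by step in a cryoprotectant, and the cells lose water as ice grows in the medium around them. Each of 4 arrays on 1 slide compared a pool of expanded blastocysts developed from slow-frozen morulae with a pool of expanded blastocysts developed from unfrozen control morulae of the same in vitro fertilization cycle. Compact morulae had been frozen in glycerol, warmed and cultured on, while control morulae were cultured on directly, and a pool held 7 embryos taken on day 7 by the labels, a size and a day that the study's methods leave wider. Slow-frozen pools were in Cy5 on arrays 1 and 2 and in Cy3 on arrays 3 and 4, and all RNA had been amplified by in vitro transcription before labelling. Only embryos that reached the expanded blastocyst stage were pooled, the breed, stage and culture were common to both groups, and the labels mark both groups as cryopreserved although the study's methods describe the controls as unfrozen.

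A probe is a short DNA strand that binds 1 stretch of RNA. The array was designed from sequenced embryo transcriptomes, and besides known genes it holds probes for transcribed regions that no gene model covered when it was built. Such regions can be unannotated ends of known transcripts, long non-coding RNAs, transcribed repeats or genes that had no name at the time. An empty symbol in that annotation does not say that no gene lies there, and no probe below can be given a role or a position here. No probe sequence was used here, so probes that share a target could not be told from probes of separate transcripts.

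Markers of the labelled stage were present. All 5 trophectoderm markers with a probe (CDX2, GATA3, KRT8, KRT18 and TEAD4, genes of the outer epithelium) passed in 8 of 8 readings, with KRT8 at a mean log2 signal of 15.72. Of 4 inner cell mass and hypoblast markers with a probe, 3 passed, with the pluripotency genes POU5F1 at 12.08, NANOG at 10.43 and SOX2 at 7.37, while SOX17 was above the limit in 3 readings. NANOG had log2 ratios of -2.18, 3.24, 2.59 and -0.39 on arrays 1 to 4, with a fitted ratio of 0.82 ± 0.87 that did not pass. Markers of cumulus and granulosa cells (FSHR, CYP19A1, INHA, HAS2 and LUM), of blood and of sperm were also detected. In at least 4 readings were 4 of 5, 4 of 4 and 3 of 3 of them, beside 75% of all probes with a symbol. Such counts therefore do not show that these cells were present. The sperm markers (PRM1, TNP1 and ODF1) passed in 5 or 6 readings near the limit, at log2 signals of 7.00 to 7.28. CYP19A1 (8.35), PTPRC (8.86) and HBA (8.68) passed in 8 of 8 readings, which is as bright as CDX2 or GATA3 here, although brightness cannot be compared between probes as a level of RNA. The summed signal of each of these lists overlapped between the groups, and its part in any result was not tested. It was 586 to 1153 in slow-frozen pools and 589 to 1388 in control pools for cumulus and granulosa cells, 1081 to 1292 and 569 to 1642 for blood, and 246 to 556 and 186 to 640 for sperm. IFNT2 and GATA6 were not matched to a probe by symbol.

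Probes without a symbol were detected less often and were dimmer than probes with one. Of those without a symbol 64.2% passed, and of those with a symbol 75% passed. In all 8 readings, 8046 probes without a symbol (36.6%) and 11186 with a symbol (51.3%) were above the limit, and 3144 (14.3%) and 2048 (9.40%) were above it in none. The gap was present in every reading, where 50.5 to 67.5% of probes without a symbol and 62.1 to 76.7% of those with one were detected. The 954 probes whose symbol is only a locus number (LOC) lay between, with 68.8% passing against 75.3% of those with any other symbol. Members at the edge of the rule were all dim. The 1406 above the limit in 4 readings had a median log2 signal of 7.16 (6.90 to 7.42), and the 1476 left out with 3 readings had 7.11 (6.84 to 9.12).

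Among the probes tested, the median of the mean log2 signal was 7.69 for probes without a symbol (quartiles 7.31 and 9.15) and 8.24 for probes with one (quartiles 7.43 and 10.10). The log2 signal is the background-corrected intensity of a pool's channel after normalization, so a step of 1 is a doubling of brightness, and the brightness of different probes also depends on how well each binds. In the 8 readings the median of probes without a symbol was lower by 0.48 to 0.55. The difference of the class medians was -0.53 ± 0.01 in slow-frozen pools and -0.52 ± 0.03 in control pools (SD, n = 4 each), which overlap. Since detection chose the members, these levels are a description and no test was made.

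**Figure D1:**
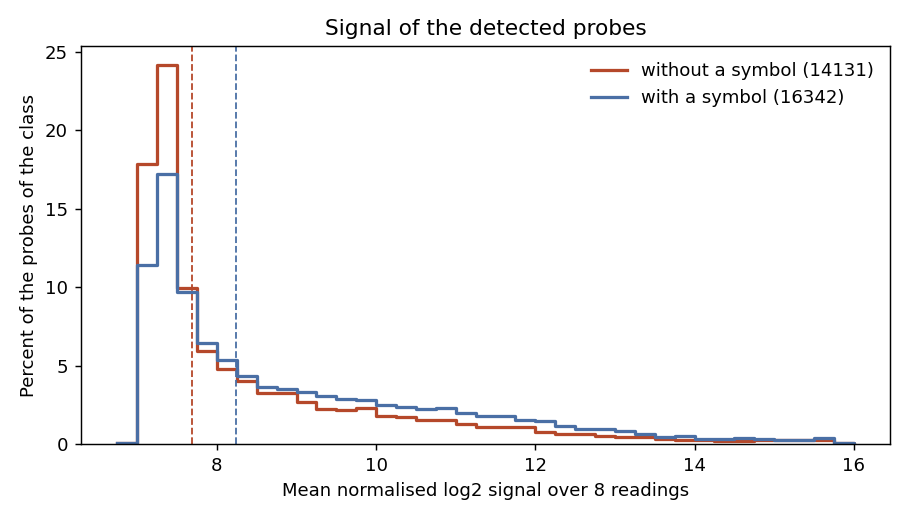
Share of the probes of each class (y axis, percent) by mean normalised log2 signal over 8 readings (x axis, bins of 0.25), for 14131 probes without a symbol and 16342 with one, with dashed lines at the class medians of 7.69 and 8.24. Both classes pile up just above the detection limit, and the class without a symbol has the larger share there and the smaller share in the bins to the right of its median.

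Some of the brightest probes had no symbol. Of the 10 brightest probes on the array 5 had no symbol, as had 40 of the brightest 100 (40%) and 381 of the brightest 1000 (38.1%). These shares of the brightest 100 and 1000 were below the 46.4% of tested probes that had no symbol. The most intense were EMBV3_15264, EMBV3_20289, EMBV3_04179, EMBV3_05811 and EMBV3_39761, with mean log2 signals of 15.80 to 15.86, as bright as the keratin probe. EMBV3_15264 read 16.00, 15.99, 15.84 and 15.97 in slow-frozen pools 1 to 4 and 15.60, 15.76, 15.82 and 15.89 in control pools 1 to 4. Its raw intensities of 47930 to 63985 were close to the scanner's ceiling, so no stability can be read from them, and its log2 ratio of slow-frozen over control was 0.18 ± 0.14 (moderated SE). The ratios of the other 4 were -0.03 to 0.21 under the same limit. An intensity of 65000, close to the top of the scanner's range, was reached in at least 1 reading by 13 members, EMBV3_04179 and EMBV3_39761 among them, and by 14 probes with a symbol.

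Summed over tested probes, those without a symbol carried 38.6 ± 0.7% of the signal above local background in slow-frozen pools and 38.3 ± 0.5% in control pools (SD, n = 4 each). The share was 39.2%, 37.8%, 39.3% and 38.3% in slow-frozen pools 1 to 4, against 38.1%, 38.7%, 38.7% and 37.7% in control pools 1 to 4. The slow-frozen pool was above its control on arrays 1, 3 and 4 and below it on array 2, and the groups overlapped. RNA per embryo and the number of cells cannot be told apart in such pools.

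The question of the design was whether transcripts differed in blastocysts from slow-frozen morulae. After Benjamini-Hochberg adjustment over all 30473 probes, limma called 0 probes without a symbol and 0 with one (0% of all probes tested). The lowest adjusted p was 0.9999 in both classes. At an unadjusted p under 0.05 lay 276 probes without a symbol, or 1.95%, and 297 with a symbol, or 1.82%, beside 1.88% of all probes. These shares are below the proportion of 0.05 that this threshold would give if no probe differed. What follows therefore describes how the ratios were spread, with no single probe past the adjusted threshold.

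The fitted log2 ratio of slow-frozen over control had a median of 0.0047 in probes without a symbol and of -4.4e-05 in probes with one. Its 5th and 95th percentiles were -0.25 and 0.28 without a symbol, and -0.27 and 0.28 with one. Of the ratios, 51.4% were above 0 without a symbol and 50.0% with one. On single arrays the middle spread of probes without a symbol, from the first to the third quartile, was 0.47, 0.47, 0.30 and 0.48 on arrays 1 to 4, and that of probes with a symbol was 0.48, 0.49, 0.38 and 0.53. It was narrower without a symbol on each array. The SD of a probe's 4 ratios had a median of 0.30 without a symbol and 0.34 with one. In the brightest quintile of tested probes (the top of 5 equal groups by mean signal) the order was the other way, with median SDs of 0.47 and 0.42 and middle spreads of the fitted ratio of 0.28 and 0.23. By comparison, control sequences printed at 10 or more spots differed among spots of 1 array by a median SD of 0.17. Where such controls were above the limit, the SD among spots stayed between 0.12 and 0.25, also at log2 signals up to 15.63.

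At the study's thresholds (1.5-fold or more, unadjusted p under 0.05) the counts of the classes leaned in different directions over the 4 arrays, but not with any 1 array left out. Of probes without a symbol, 60 were higher in blastocysts from slow-frozen morulae (0.425%, against 0.276% of all probes tested) and 10 were lower (0.0708%, against 0.128% of all). Of probes with a symbol, 24 were higher and 29 lower. Probes without a symbol made up 71.4% of the higher and 25.6% of the lower probes, and 46.4% of the probes tested. Their share of the higher probes was 44.5%, 66.1%, 46.2% and 43% without array 1, 2, 3 or 4, near their share of all probes except without array 2. At a fold of 2, 6 members were higher (0.0425%, against 0.023% of all probes tested) and 2 lower (0.0142%, against 0.00984% of all), beside 1 and 1 with a symbol. Without array 1, 2, 3 or 4 these member counts were 8, 26, 3 and 20 higher and 2, 7, 10 and 11 lower, and with median centring 0 and 5. None passed the adjustment, and the difference between the classes was not tested, because probes are not replicates and may share targets.

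These counts moved with the processing. With median centring in place of the loess curve, 19 members were higher and 219 lower, and 6 probes with a symbol were higher and 273 lower, so that the lean of the members turned round while both classes leaned the same way. With a variance prior that follows a probe's mean ratio, 0 members and 0 probes with a symbol passed in either direction. That prior was not fitted against signal and depends on the ratio itself, so this 0 does not show how the counts depend on signal. Without array 1 there were 93 members higher and 59 lower, beside 116 and 87 probes with a symbol. Without array 2 there were 158 and 46 members, beside 81 and 64 with a symbol. Without array 3 there were 85 and 126 members, beside 99 and 178 with a symbol. In that fit the lean of the members also turned, and in each of the 4 fits both classes leaned the same way. Without array 4 there were 235 and 178 members, beside 312 and 218 with a symbol. Of the higher members in these fits, 18, 40, 34 and 49 were among the 60. In each of these 4 fits all 60 kept a ratio above 0. They had been chosen for a 1.5-fold ratio in the same arrays, so this gives no independent support for their direction.

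**Figure D2:**
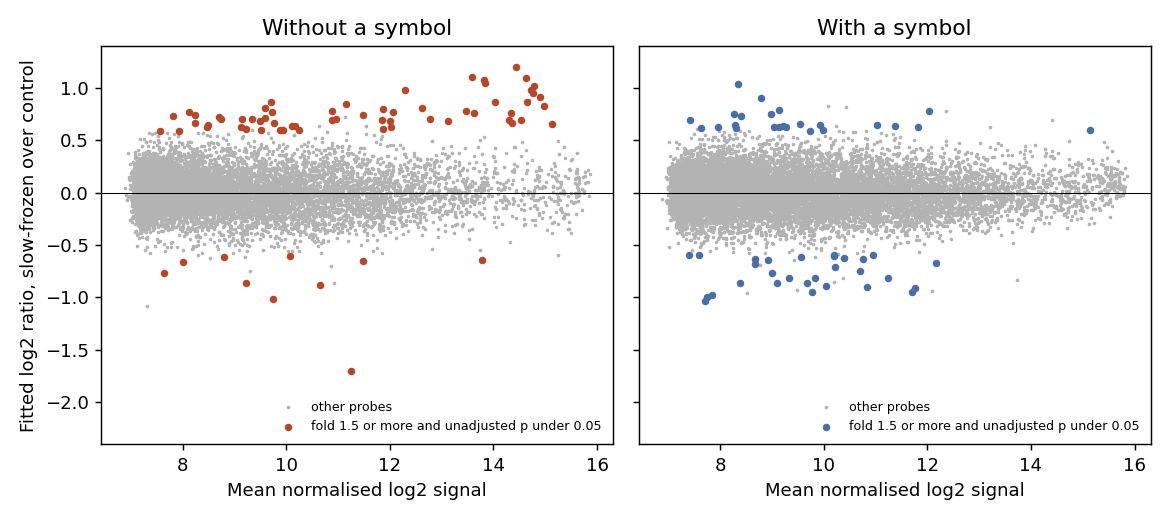
Fitted log2 ratio of slow-frozen over control (y axis) against mean normalised log2 signal (x axis) for each tested probe, without a symbol at left and with one at right. Coloured points reached 1.5-fold with an unadjusted p under 0.05 (60 higher and 10 lower at left, 24 and 29 at right), and above a log2 signal of 13 there are 20 coloured points with a positive ratio at left and 1 at right.

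The 60 higher members were bright, although members in general were dim. Their median log2 signal was 11.31 (quartiles 9.50 and 13.83), against 9.14 for the 24 higher probes with a symbol. When all tested probes were ranked by mean signal and split into 5 equal quintiles, the lowest had 0 higher members and the highest had 35 of 2188 (1.6%), against 5 of 3907 with a symbol (0.128%). In the quintile below it the shares were 0.712% without a symbol and 0.309% with one. Lower members were 4 of 2188 (0.183%) in the highest quintile, against 9 of 3907 (0.230%) with a symbol. Above a log2 signal of 13, 20 of 471 probes without a symbol and 1 of 792 with a symbol were higher.

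This contrast in the highest quintile was smaller, as a ratio of the shares, with any 1 array left out. Without array 1 the shares were 0.686% of members and 0.486% of probes with a symbol, and without array 3 they were 1.23% and 0.870%. Without array 2 they were 4.11% and 0.486%, and without array 4 they were 6.22% and 3.94%. With mean in place of median spot intensities they were 1.02% and 0.109%. With median centring they were 0.457% and 0%, while 130 members and 161 probes with a symbol in that quintile were lower.

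**Figure D3:**
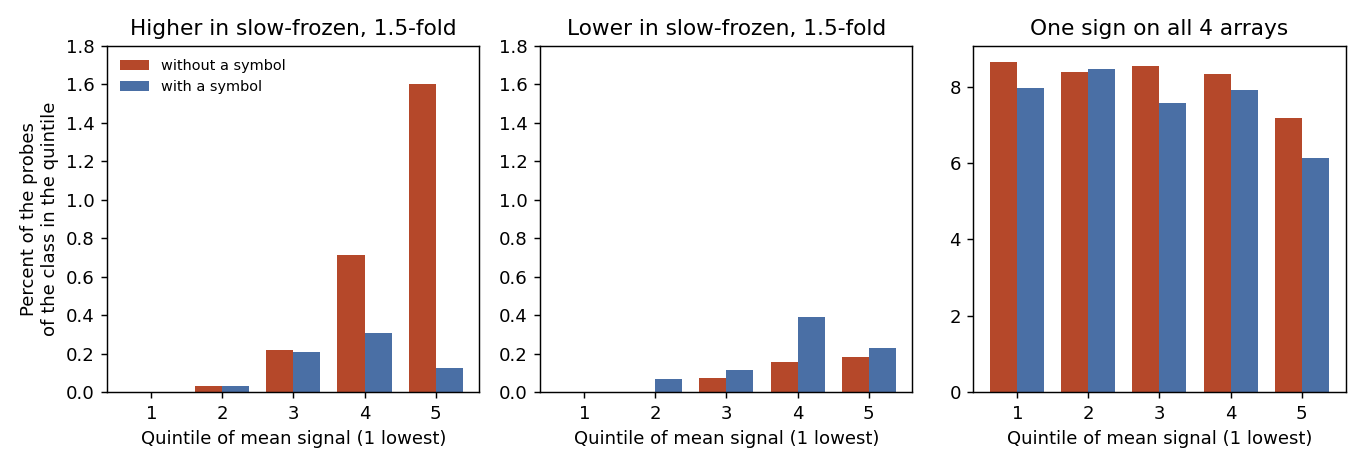
Percent of the probes of each class (y axes) within quintiles of mean signal over all tested probes (x axes), for probes higher by 1.5-fold in blastocysts from slow-frozen morulae, lower by 1.5-fold, and with 1 sign on all 4 arrays. The share of higher probes is 1.6% in the brightest quintile without a symbol and 0.128% with one, while the share with 1 sign is 6.12 to 8.63% throughout.

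The ratio had 1 sign on all 4 arrays in 8.28% of probes without a symbol and 7.51% of probes with one. Both were below the proportion of 0.125 that independent ratios, equally often above and below 0, would give. Positive on all 4 were 608 members (4.30%, against 3.99% of all probes tested) and negative 562 (3.98%, against 3.88% of all). The share was larger without a symbol in 4 of the 5 signal quintiles, with 8.63%, 8.39%, 8.54%, 8.34% and 7.18% from the dimmest to the brightest, against 7.95%, 8.45%, 7.58%, 7.91% and 6.12%. The order of the classes turned round with median centring (11% without and 11.7% with a symbol) and with mean spot intensities (6.19% and 6.59%).

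Arrays agreed poorly with each other in either class. Across the 14131 members, which are not independent replicates, Pearson's r between the turned ratios was 0.04 for arrays 1 and 2 and -0.18 for arrays 3 and 4, the pairs with the same dye orientation. It was -0.11 for arrays 1 and 3, -0.02 for 1 and 4, 0.01 for 2 and 3 and -0.29 for 2 and 4. Across probes with a symbol the 6 values ran from -0.27 to 0.06. The sign was shared by arrays 2 and 4 in 40.3% of members, and by arrays 1 and 2 in 51.9%.

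The 60 higher members fell into a few shapes over the arrays. Above 0 on all 4 arrays were 27 (39 such probes in all, 0.128% of those tested). Another 20 were above 0 on arrays 1 to 3 and below 0 on array 4, and 11 were below 0 only on array 2. The other 2 were EMBV3_29391 and EMBV3_21402. The higher probes with a symbol had 12, 5 and 1 probes with these 3 shapes, and 5 that were below 0 only on array 3. Members of the 60 stood all over the array surface, with 11 to 19 in each of 4 equal areas.

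The 20 members that went below 0 on array 4 were the brightest, with a median log2 signal of 13.93, and 12 of them were above 13. Their median ratios were 1.50, 1.38, 1.12 and -0.55 on arrays 1 to 4. The 11 that went below 0 on array 2 had a median log2 signal of 12.62 and median ratios of 0.87, -0.24, 1.27 and 1.10. The 27 with 1 sign had 10.11, with 1.01, 0.36, 0.80 and 0.66. Array 2 thus gave the smallest median ratio among those 27 as well.

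**Figure D4:**
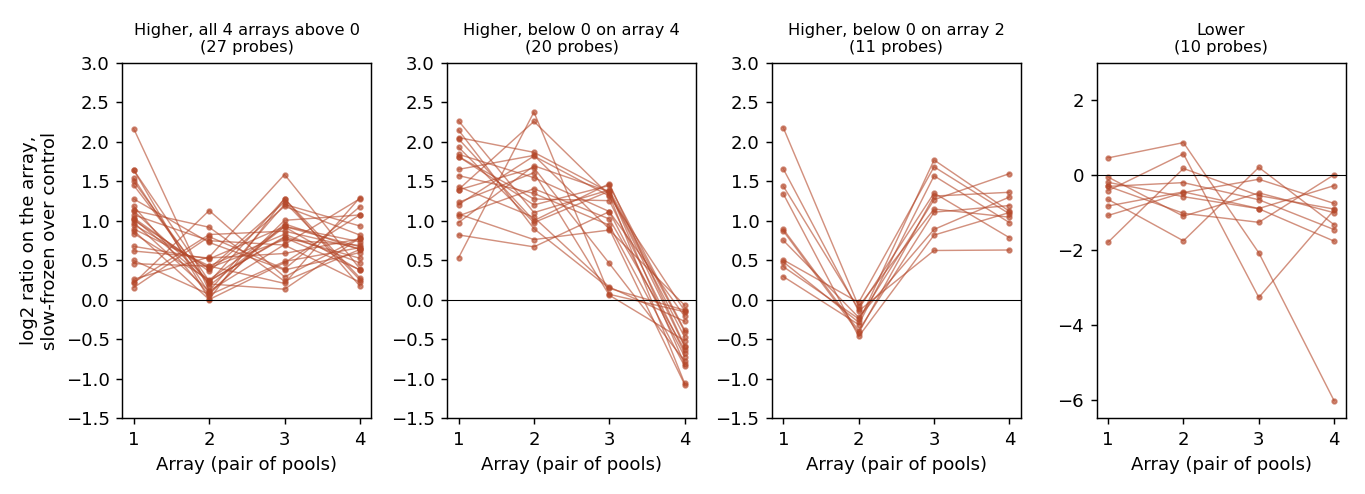
Log2 ratio of slow-frozen over control (y axes, the scale of the last panel is longer) on arrays 1 to 4 (x axes) for members past 1.5-fold, 1 line per probe, split by shape: 27 above 0 on all arrays, 20 below 0 on array 4, 11 below 0 on array 2, and the 10 lower members. The 2 higher members of other shapes are not drawn, and the sizes vary widely within a set, from 0.15 to 2.16 on array 1 among the 27.

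The largest ratio with 1 sign belonged to EMBV3_41934. Its log2 signal was 14.33, 14.46, 13.84 and 13.88 in slow-frozen pools 1 to 4, against 12.17, 14.35, 12.63 and 12.94 in control pools 1 to 4. The slow-frozen pools were alike, and the control pools fell apart, with control pool 2 as bright as the slow-frozen pools, so the groups overlapped. The log2 ratio was 1.10 ± 0.32 (moderated SE), a fold of 2.15, at an unadjusted p of 0.0117 and an adjusted p of 0.9999 in limma. It was 0.59 without array 1 and 1.62 without array 2.

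EMBV3_11457 had the tightest ratio of the 8 named higher members relative to its size. It read 11.44, 11.77, 11.40 and 11.68 in slow-frozen pools, against 10.40, 11.41, 10.22 and 10.86 in control pools. Control pool 2 was again the brightest control and just above slow-frozen pool 3. The log2 ratio was 0.85 ± 0.17, at an unadjusted p of 0.00214.

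EMBV3_38580, the dimmest of the 8, read 8.94, 8.50, 8.06 and 8.96 in slow-frozen pools, against 7.66, 7.78, 7.68 and 8.36 in control pools. Here control pool 4 was the brightest control, above slow-frozen pool 3 but below the other slow-frozen pools. Its log2 ratio was 0.74 ± 0.16. The other 5 (EMBV3_25354, EMBV3_01894, EMBV3_36428, EMBV3_21572 and EMBV3_02228) had log2 ratios of 0.74 to 0.81. In each of these 5 the ratio was smallest on array 2, between 0.00 and 0.24, and EMBV3_36428 was at 0.00 there. Without array 1 their ratios were 0.37 to 0.55, and without array 2 they were 0.98 to 1.18.

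Of the members below 0 on 1 array, chosen after their values were seen, EMBV3_28462 had the largest ratio of all 60. It read 15.59, 15.54, 15.07 and 13.95 in slow-frozen pools, against 13.53, 13.68, 13.70 and 14.43 in control pools. Slow-frozen pool 4 was well below the other slow-frozen pools, and control pool 4 was the brightest control. The log2 ratio was 1.20 ± 0.29 with an SD of 1.16 over the 4 arrays. The moderated SE leaves out the difference between dye orientations, which for this probe was a dye term of 1.52.

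EMBV3_03808, also chosen afterwards, read 14.82, 14.65, 14.03 and 13.94 in slow-frozen pools, against 12.64, 14.73, 12.88 and 12.90 in control pools. Control pool 2 stood apart from the other controls, as it did for EMBV3_41934. Its log2 ratio was 1.07 ± 0.34.

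Several of these probes followed one another across the 8 readings, which share 4 arrays and are not independent, so the correlations are given as a description. The 7 probes most like EMBV3_41934 among 8045 other members and 11186 probes with a symbol above the limit in all readings had no symbol (EMBV3_02228, EMBV3_37757, EMBV3_38543, EMBV3_03808, EMBV3_05884, EMBV3_15785 and EMBV3_01894, Pearson's r of 0.96 to 0.99). The first with a symbol was SLC25A16, a mitochondrial carrier, at 0.955. At r of at least 0.9 there were 21 members and 9 probes with a symbol. For EMBV3_28462 there were 20 and 12, led by HGS, a gene of endosomal sorting, and by EMBV3_42262 and EMBV3_32083, at log2 signals of 14.77 and 14.78. For EMBV3_03808 there were 16 and 7, and its 10 closest probes all lacked a symbol. The 3 starting probes were picked for their ratio, and whether their neighbours bind the same RNA was not tested.

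**Figure D5:**
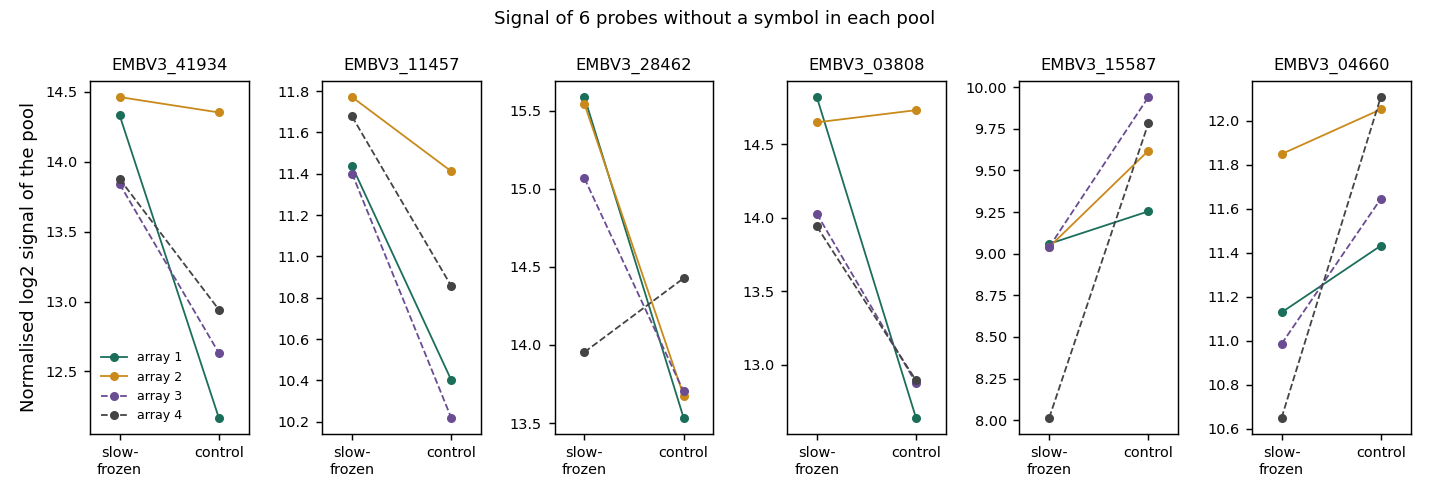
Normalised log2 signal (y axes, each panel with its own scale) of 6 probes without a symbol in slow-frozen (left) and control (right) pools, with a line joining the pools of 1 array, solid where the slow-frozen pool was in Cy5 and dashed where it was in Cy3. EMBV3_41934 and EMBV3_03808 share a bright control pool 2, EMBV3_28462 crosses on array 4, and EMBV3_15587 and EMBV3_04660 are lower in every slow-frozen pool than in its paired control.

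Of the 10 lower members, 5 had 1 sign on all arrays (19 such probes in all, 0.0624% of those tested). EMBV3_15587 read 9.06, 9.04, 9.04 and 8.02 in slow-frozen pools, against 9.25, 9.62, 9.94 and 9.78 in control pools. The groups did not overlap, and the ratios were farthest from 0 on arrays 3 and 4. The log2 ratio was -0.86 ± 0.19, at an unadjusted p of 0.00321 in limma. Its SD over the 4 arrays was 0.67, and the moderated SE leaves out a dye term of 0.95. Its most similar probes were EMBV3_31833 and EMBV3_39237, both without a symbol, at r of 0.96.

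EMBV3_04660 read 11.13, 11.85, 10.99 and 10.65 in slow-frozen pools, against 11.43, 12.05, 11.64 and 12.11 in control pools. Slow-frozen pool 2 reached into the range of the controls. The log2 ratio was -0.66 ± 0.18, with an SD of 0.57 over the 4 arrays and a dye term of 0.81. EMBV3_42903 (-0.61) read 8.24 to 8.77 in slow-frozen pools and 8.69 to 9.49 in control pools, with an overlap at control pool 2. EMBV3_20858 (-0.66) and EMBV3_17499 (-0.61) also overlapped.

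For comparison, the largest ratios with 1 sign among probes with a symbol were those of PLA2R1, a phospholipase receptor, at 1.04 ± 0.23, of LOC100299503 at 0.90, and of P4HB, a protein disulphide isomerase, at 0.78. Lower were VIM, the intermediate filament vimentin (-1.03 ± 0.31), ISG12(A), an interferon-stimulated gene (-0.99 ± 0.24), and SPP1, the secreted phosphoprotein osteopontin (-0.98 ± 0.21). These 3 had mean log2 signals of 7.72 to 7.85, near the detection limit, and the lower members with 1 sign had 8.005 to 11.48. The 3 higher probes with a symbol had 8.35 to 12.03, inside the range of the leading higher members (8.24 to 13.58).

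Another set of members varied widely with no common direction. EMBV3_40050 had the largest SD of the 4 ratios (1.86) among members detected in all readings. It read 14.92, 13.21, 14.05 and 15.68 in slow-frozen pools, against 13.93, 15.32, 15.70 and 14.09 in control pools, so that slow-frozen pools were brighter on arrays 1 and 4 and dimmer on arrays 2 and 3. Its closest probe was CLIC4, a chloride channel protein, at r of 0.99. EMBV3_39437 read 12.05, 12.81, 12.10 and 10.00 in slow-frozen pools, against 11.38, 13.18, 10.34 and 12.46 in control pools. EMBV3_10046, the third by SD, followed it at r of 0.998, and EMBV3_15225 at 0.988. EMBV3_30379 was the fourth, with an SD of 1.67 and a log2 ratio of 0.01. For all 4 the mean ratio was between -0.30 and 0.01, within the spread over arrays.

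The dye term, the ratio with the slow-frozen pool in Cy5 minus that with it in Cy3, passed the adjustment in 0 members and in 0 probes with a symbol (0% of all probes). At an unadjusted p under 0.05 lay 717 members (5.07%) and 836 probes with a symbol (5.12%), against 5.1% of all. The widest dye terms among members detected in all readings were -2.51 for EMBV3_39371, 2.47 for EMBV3_13587, -2.33 for EMBV3_35470 and -2.21 for EMBV3_41495. EMBV3_39371 read 8.95, 9.16, 10.82 and 10.79 in slow-frozen pools, against 9.87, 10.27, 9.38 and 9.25 in control pools. Its slow-frozen pools were dimmer on arrays 1 and 2 and brighter on arrays 3 and 4, with a treatment ratio of 0.24 ± 0.14.

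A member could also be above the limit in all 4 pools of 1 group and in none of the other. This held for 3 members detected only in slow-frozen pools (0.0212%, against 0.023% of all probes tested). It held for 4 only in control pools (0.0283%, against 0.0164% of all), beside 4 and 1 with a symbol. Since they met the rule on detection only through the group where they were high, their direction was fixed by that choice and is no result. Only bounds can be given for these, taken as the mean of the bright group over the mean of the dim one with each dim reading set no lower than the dimmest detected probe of its channel. EMBV3_36203 was at least 1.16-fold higher in slow-frozen pools, EMBV3_42208 at least 1.10-fold and EMBV3_21719 at least 1.08-fold. EMBV3_27428 was at least 1.28-fold lower, EMBV3_00412 at least 1.15-fold, and EMBV3_09439 and EMBV3_03683 at least 1.10-fold. These bounds are of group means and do not hold on each array. On array 4 the log2 ratios of EMBV3_09439 and EMBV3_03683 were 0.003 and 0.018, and on array 3 that of EMBV3_42208 was -0.027. All 7 lay within a narrow band at the limit, with mean log2 signals of 7.04 to 7.27, and with mean spot intensities the log2 ratio of EMBV3_42208 was 0.05 and that of EMBV3_09439 turned to 0.0239.

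Only 2 members passed the adjustment when an array was left out. EMBV3_39949 read 12.43, 11.86, 10.64 and 6.66 in slow-frozen pools, against 11.97, 10.99, 12.72 and 12.70 in control pools, and slow-frozen pool 4 was not above the limit. Its spot there had an intensity of 165 in Cy3 beside 5584 for the control in Cy5, whereas on array 1 the values were 5052 and 4758. The log2 ratio was -1.70 ± 0.57 over all arrays and -2.69 without array 3, at an adjusted p of 0.00388 in limma. In that fit array 4 alone, with a ratio of -6.04 from a reading below the limit, stands for its dye orientation and is assumed to vary like the others. Arrays 1 and 2 gave 0.46 and 0.87, so the p has no replicate behind it in that orientation. Without array 4 the ratio was -0.71.

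EMBV3_43714 had a log2 ratio of -2.16 without array 4, at an adjusted p of 0.0446, and of -1.08 over all arrays. In that fit array 3 alone stands for its dye orientation. It read 7.83, 7.90, 3.58 and 7.83 in slow-frozen pools, against 7.59, 8.28, 7.84 and 7.74 in control pools. On array 3 its spot lay in a local background of 33220 in the slow-frozen channel and 3175 in the control channel, and the scanner software had marked it as ignored. With marked spots left out, an alternative chosen after seeing the data, its log2 ratio was 0.00882.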

How the data were processed

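The authors deposited 1 scanner table per array with median and mean spot intensity and local background intensity per dye, not corrected, and a value table on a log2 scale that was read as centred log2 ratios of Cy5 over Cy3. The slide was read with Array-Pro by the study. Here 45220 spots per array were read. Intensities were corrected with normexp (offset 50), normalized by loess within arrays on the design's probes, and turned to slow-frozen over control. For levels, channels were set on a common scale by Aquantile. Ratios were fitted in limma 3.58.1 (R 4.3.3) with terms for treatment and dye, eBayes and Benjamini-Hochberg adjustment at 0.05 over all 30473 probes. An SE beside a ratio is the moderated SE of the treatment term. The fit was tested on simulated data.

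The ratio within an array already paired its 2 pools, and the 4 pairs came from separate fertilization cycles. The limits of detection were 44.8 to 173.2 in Cy5 and 156.4 to 173.8 in Cy3. With 4 arrays, precision is limited by their number. Gene symbols came from the platform annotation, which gave 21790 probes 1 symbol and the rest none, with no accession or Entrez ID for any.

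Members and lists were chosen with earlier results of these data known. Probes named were the 8 per direction with the largest ratio at 1.5-fold with 1 sign, the 5 brightest, the 4 of largest SD, the 4 of largest dye term, those detected in 1 group only, and those called without 1 array, besides probes named as chosen afterwards. Alternatives were other background corrections, normalizations, filters, variance settings, the deposited log2 values, mean intensities, fits without the dye term or the array pairing, and leaving out each array. Figures were drawn with matplotlib 3.10.9.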

Additional observations from a re-analysis of the deposited data

Results flagged for a closer look

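Of 41 sets of 4 values examined (the array ratios of the named members and 6 summaries by group), 1 held a value that stood apart from the other 3 by Dixon's criterion, which chance alone meets in about 1 of 20 sets. It was EMBV3_43714 on array 3, with a log2 ratio of -4.26, against 0.24, -0.38 and 0.09 on arrays 1, 2 and 4. Its spot there was marked as ignored by the scanner software and had a local background of 33220 in Cy3.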

How the results depend on the processing

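The count of 60 members higher at 1.5-fold became 19 with median centring and 39 with mean spot intensities. It became 0 with a variance prior that follows a probe's mean ratio, and ran from 85 to 235 with 1 array left out. The count of 10 lower became 219, 6 and 0 under the same 3 settings, 21 with plain background subtraction, with the deposited values and with marked spots left out, 16 with LOC symbols counted as no symbol, and 46 to 178 with 1 array left out. The adjusted count of 0 stayed 0 except for 1 member without array 3 and 1 without array 4 (0 to 1), and that of the dye term reached 1 without array 3 (0 to 1). The cause was not tested. Without the pairing by array (no replicate block), 53 members were higher, 9 lower and 0 adjusted.

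The difference of median log2 signal (-0.53) became -0.59 with plain subtraction, -0.46 for probes above the limit in all readings, -0.48 at the 99th percentile and -0.34 with no filter. The share of members tested became 36.6% in all readings and 47.0% at the 99th percentile, as stricter limits require. Members detected in 1 group only became 1 with mean intensities and, by construction, 0 when all readings were required. The median ratio became -0.055 with median centring and -0.00071 with no filter, and ran from -9e-04 to 0.0092 with 1 array left out. The share with 1 sign became 11% with median centring and 6.19% with mean intensities, and on 3 arrays was 17.6 to 23.9%, as fewer arrays allow.

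EMBV3_43714 (-2.16 without array 4) turned above 0 with no background correction (0.47), with the deposited values (0.25), without array 3 (0.00863) and with marked spots left out (0.00882), and EMBV3_09439 with mean intensities (0.0239). The 13 members named for a 1.5-fold ratio with 1 sign kept their direction in 247 of 247 refits under 19 settings, and 217 had an unadjusted p under 0.05. They had been chosen in the same data for that sign and that p, and leaving out an array could not turn their ratio. These counts therefore give no independent support for a direction. Marked spots, a loess curve on probes with a symbol and the LOC definition were chosen after seeing the data. Leaving out probes with another identifier was not run, because 0 members had one. Few dim probes of either class reached 1.5-fold with an unadjusted p under 0.05. In the lowest 2 signal quintiles 1 of 6696 members did. Of the 5493 probes with a symbol there, 1 was higher and 2 were lower. Whether signal over background limits what dim probes can show was not tested.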
